A study of Drosophila melanogaster with 3 samples.

Results

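The 4 stretches of chromosome described here are those assigned to the gap genes hb, kni and knrl, gt, and tll, and their members are the peaks of 1 cad-GFP ChIP-seq peak list whose midpoint lies within them. They held 6 of the 7579 peaks of the list. On the BDGP5 assembly the stretch of hb runs from 4500000 to 4540000 on 3R, the shared stretch of kni and knrl from 20600000 to 20720000 on 3L, the stretch of gt from 2300000 to 2345000 on X and the stretch of tll from 26660000 to 26700000 on 3R. Together they span 245 kb. The stretches were set by position, with earlier results of these data known.

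ChIP-seq recovers DNA bound to a chosen protein with an antibody and sequences it, and a peak is an interval where a peak caller found more reads than its background model allows. The ChIP sample came from Drosophila melanogaster of source 7T at the stage labelled 3dFemale, carried the transgene cad-GFP and was precipitated with the antibody labelled NWG-GFP; its title covers replicates 1 and 2. The 2 other samples of the series are inputs of the same source and stage, and no values of theirs were analysed here. The name of the antibody refers to the GFP tag of the transgene's product. DNA recovered without that product was not measured here. No source used here names the regulatory sequence that drives the transgene. The growth text in the labels names y w, VK33 flies and an embryo collection, which differs from the stage label. With 1 list there is no replicate error, so no difference below was tested, and the depth of reads behind the list is unknown.

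Gap genes are the first zygotic genes that divide the early Drosophila embryo into broad regions along its head-to-tail axis, and all of those named here encode transcription factors. hb (hunchback) encodes a zinc finger protein, and the gene is also expressed maternally. kni (knirps) and its relative knrl (knirps-related) encode DNA-binding proteins of the nuclear receptor type with no known ligand. gt (giant) encodes a basic leucine zipper protein, and tll (tailless) encodes an orphan nuclear receptor of the embryo's ends. Caudal, the homeodomain protein encoded by cad, is known in the embryo as an activator of posterior segmentation genes, including the posterior domains of kni and gt. In the adult fly Caudal is known from the gut. These roles are background and were not measured.

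The peaks were shared unevenly among the gap gene stretches. The hb stretch held 4 peaks, the gt stretch held 2, and the stretches of kni with knrl and of tll held 0. This gives 24.5 peaks per Mb over all 4 stretches, against 64.2 per Mb in the rest of the 3 arms that carry them (4711 peaks). Of the sequence in the stretches, 2.85% lay inside a peak, against 11.3% to 11.5% of the rest of each arm. Both pooled values are lowered by the empty stretch of kni and knrl, which makes up 120 of the 245 kb. No position of a gene on BDGP5 was used here, so a peak is given by its place in a stretch and is not assigned to a gene, and the fit of each stretch to its gene was not checked. Whether Caudal was bound at any of the peaks was not tested.

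**Figure D1:**
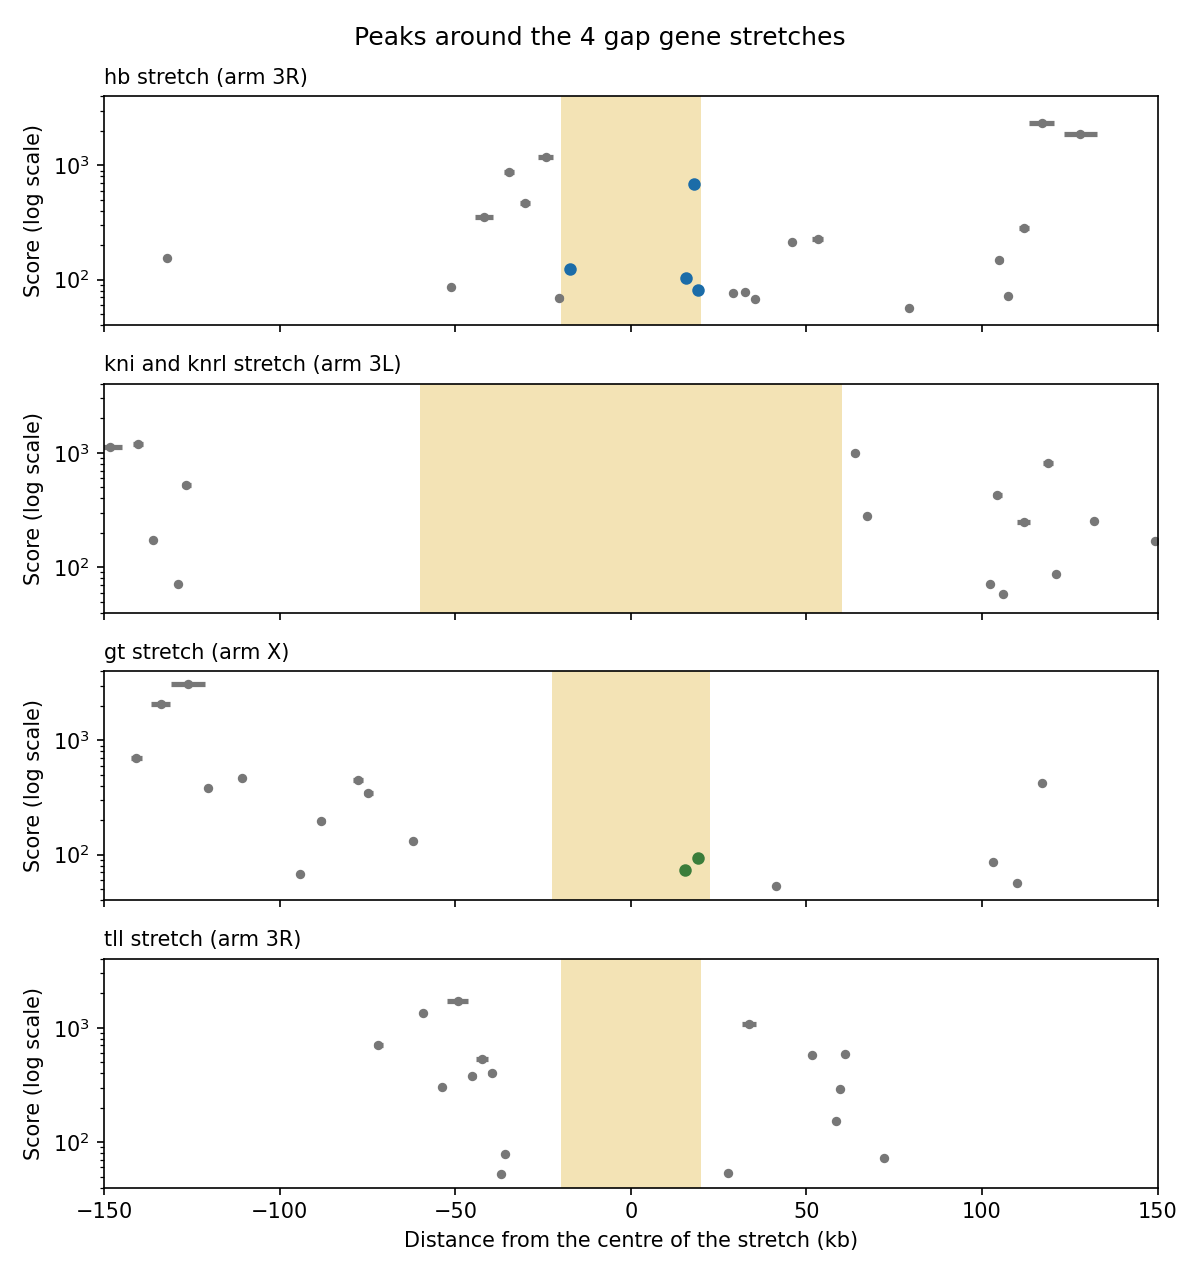
Peaks within 150 kb of the centre of each gap gene stretch, by distance from the centre in kb (horizontal) and deposited score on a log axis (vertical); each segment spans a peak (hidden by its dot where narrow), the dot marks its midpoint, colour marks the 6 member peaks, grey marks other peaks, and the shaded band is the stretch. The member peaks lie near the edges of the hb and gt bands, and the bands of kni with knrl and of tll hold no peak.

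The hb stretch had 1 peak at its left side and 3 close together at its right side. The left peak lay at 3R 4501891 to 4503204, was 1314 bp wide and had a score of 122.84, with its midpoint 2.55 kb inside the left edge. The score is the authors' value for the peak. Its definition is not given in the file, it starts at 50 and it is used here only to order and describe peaks. The highest score of all 6 member peaks belonged to the peak at 3R 4537214 to 4538521, which was 1308 bp wide and scored 692.44. That score exceeded 87.7% of the list, while the width of the same peak exceeded 47.8% of the list. It stood apart from the other members, none of which scored above 122.84.

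On either side of the strongest hb peak lay a weaker one. The peak at 3R 4535441 to 4535817 was the narrowest member at 377 bp, narrower than all but 1.36% of the list, and scored 104.35. The peak at 3R 4538550 to 4539417 was 868 bp wide and scored 81.91, the lowest of the hb stretch. Only 28 bp separated its edge from that of the strongest peak, and the midpoints of this closest pair were 1.12 kb apart. The midpoints of the narrow peak and the strongest one were 2.24 kb apart. All 3 midpoints lay within 4.37 kb of the right edge. Between this group and the left peak, 32.2 kb of the hb stretch (80.6% of it) held no peak.

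The edges of the hb stretch decided which peaks were counted. A peak at 3R 4498596 to 4500569 with a score of 69.73 reached 569 bp into the stretch, but its midpoint lay 0.418 kb outside. The next peak on that side, at 3R 4493569 to 4497916, was 4348 bp wide, scored 1191.14 and had its midpoint 4.26 kb outside, so that the strongest peak close to the stretch is not a member. It was followed outwards by peaks scoring 469.82 and 867.76 at 10.1 and 14.7 kb from the edge. On the right the first peak outside lay 9.05 kb away and scored 77.2, and the 2 after it scored 77.8 and 67.19. The fourth on that side, 25.9 kb out, scored 214.98. Of the 4 nearest peaks on each side, 3 on the left and 1 on the right scored above the list median of 198.7. With the stretch widened by 5 kb at each edge it held 6 peaks, and with it narrowed by as much it held 0.

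The gt stretch held 2 weak peaks, both on its right side. The peak at X 2337406 to 2338433 was 1028 bp wide and scored 73.34, the lowest of all members, with its midpoint 7.08 kb inside the right edge. The peak at X 2340949 to 2342464 was 1516 bp wide, the widest of all members, and scored 93.49, with its midpoint 3.29 kb inside that edge. Their midpoints were 3.79 kb apart. Only 10.4% of the peaks on X scored below the first of them and 17.7% below the second. Just outside the stretch the nearest peak on the right scored 53.05 at a distance of 18.9 kb, and the nearest on the left scored 132.65 at 39.6 kb.

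No peak with a score of 1000 or more lay near the gt stretch. The closest such peak was 104 kb from its left edge, at X 2191407 to 2201076, with a width of 9670 bp and a score of 3100, a value that many of the strongest peaks of the list share. For the other stretches the closest peak of 1000 or more was 4.26 kb away for hb, 3.75 kb for kni and knrl, where it scored 1001.27, and 13.5 kb for tll, where it scored 1069.75. The gt stretch was the only one of the 4 without such a peak within 20 kb. Peaks of 1000 or more are few, at 6.77% of the list. How many other windows of the arm lack one within 20 kb was not computed, so this does not mark gt as unusual.

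The shared stretch of kni and knrl, although the longest at 120 kb, held no peak and no base inside a peak. It lay wholly within a peak-free interval of 188 kb, from 20534701 to 20722790 on 3L. That interval was the tenth longest of the 1547 on the arm, whose median was 3.47 kb (rank 10), and 0.646% of the intervals were at least as long. Such long intervals made up 9.63% of the span of the arm. The interval reached 65.3 kb beyond the left edge of the stretch and 2.79 kb beyond the right edge.

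The peaks that bound this interval were not weak ones. The peak on its right, at 3L 20722791 to 20724720, was 1930 bp wide and scored 1001.27, and the peak on its left, at 3L 20532057 to 20534700, was 2644 bp wide and scored 521.41. The right one had its midpoint 3.75 kb outside the stretch and was counted when the stretch was widened by 5 kb at each edge. A second peak, scoring 281.68, followed on the right at 7.34 kb. Release 6, a later assembly, was used here only for the names of genes and their order by start. In that order 7 genes lie between knrl and kni, of which CG13251 is the only 1 annotated as protein-coding. The protein-coding neighbour of kni on the far side is cmpy and that of knrl is CG13250.

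The tll stretch also held no peak, within a peak-free interval of 62.9 kb that ran from 26644491 to 26707359 on 3R. At least this long were 86 of the 1787 intervals of the arm (4.81%), whose median was 3.86 kb. The peaks that bound it were both weak, with a score of 78.38 and a width of 713 bp on the left and a score of 53.77 and a width of 579 bp on the right. Farther out the scores were higher. At 19.6 and 22.4 kb from the left edge stood peaks of 400.21 and 528.2, and at 13.5 kb from the right edge a peak of 1069.75 that was 3942 bp wide. Widening the tll stretch by 5 kb at each edge brought in no peak. In the Release 6 order the protein-coding neighbours are CG15544 and Cpr100A for tll, CG44227 and Cks85A for hb, and CG32797 and tko for gt.

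**Figure D2:**
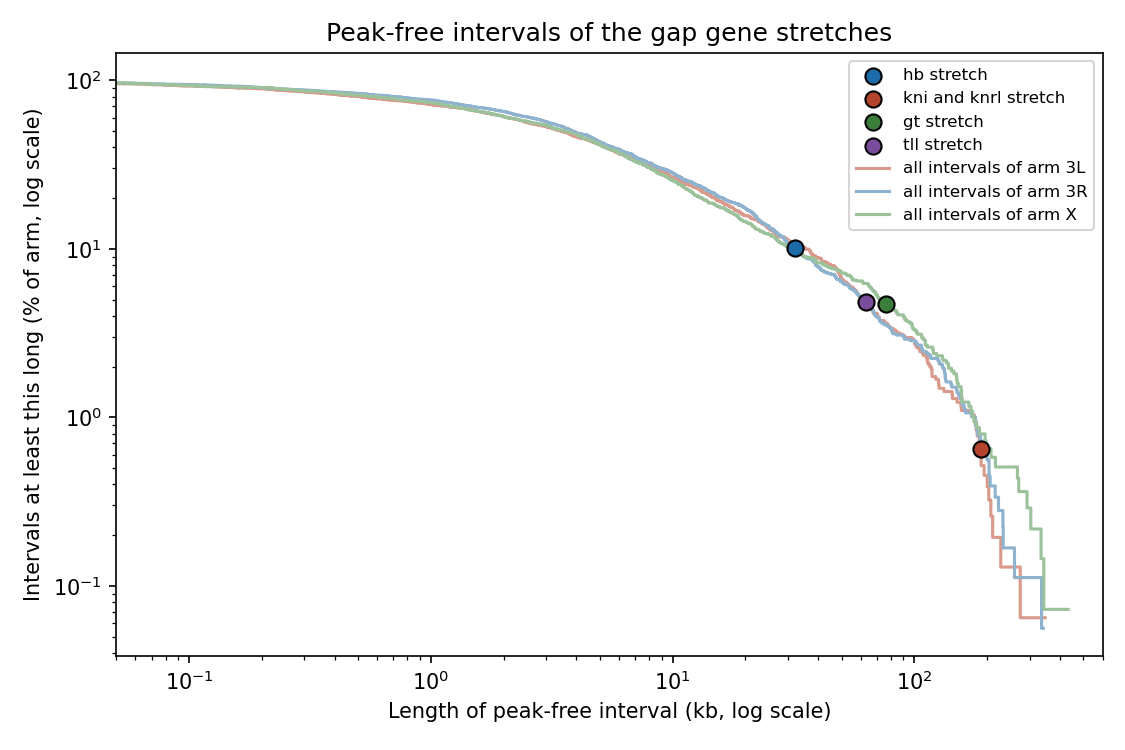
Share of the peak-free intervals of an arm that are at least as long as a given length, both axes on log scales, for all intervals of 3L, 3R and X (lines) and for the interval that covers most of each gap gene stretch (points). The interval of kni and knrl, 188 kb, lies far to the right at 0.646% of the intervals of its arm (not of its length). Those of gt (76.5 kb), tll (62.9 kb) and hb (32.2 kb) lie at 4.71%, 4.81% and 10.1%.

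The longest peak-free interval that touched the gt stretch ran from 2260882 to 2337405 on X and covered 83.1% of the stretch. It measured 76.5 kb, and 65 of the 1380 intervals of X were at least as long (4.71%). The interval inside the hb stretch was shorter, and 181 of the 1787 on 3R were at least as long (10.1%). A fixed stretch is more likely to fall in a long interval than in a short one. Intervals of at least these lengths made up 42.6% of the span of X for gt, 39.0% of that of 3R for tll and 54.1% for hb, against the 9.63% of 3L for kni and knrl.

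Each stretch was then set beside all complete, non-overlapping windows of its own length on its own arm. The hb stretch had 4 peaks, against a median of 2 (quartiles 0 and 4, highest 14) in 695 other windows of 40 kb on 3R. At least 4 peaks were held by 30.6% of those windows and no peak by 28.6%. The gt stretch had 2 peaks, and 495 other windows of 45 kb on X had the same median of 2 (quartiles 0 and 5), with at least 2 peaks in 54.9% and no peak in 33.3%. The hb and gt stretches were therefore within the middle of the spread of their arms or at its upper quartile.

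The empty tll stretch was likewise common for its arm, since 28.6% of the 695 windows of its length on 3R were empty. An empty stretch of 120 kb was less usual. Of 192 other windows of that length on 3L, 13 held no peak (6.77%), and the median was 7 (quartiles 4 and 11, highest 24). These shares describe where the stretches stand among windows of 1 list and are not p-values. Windows of 1 arm are not independent of each other either.

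**Figure D3:**
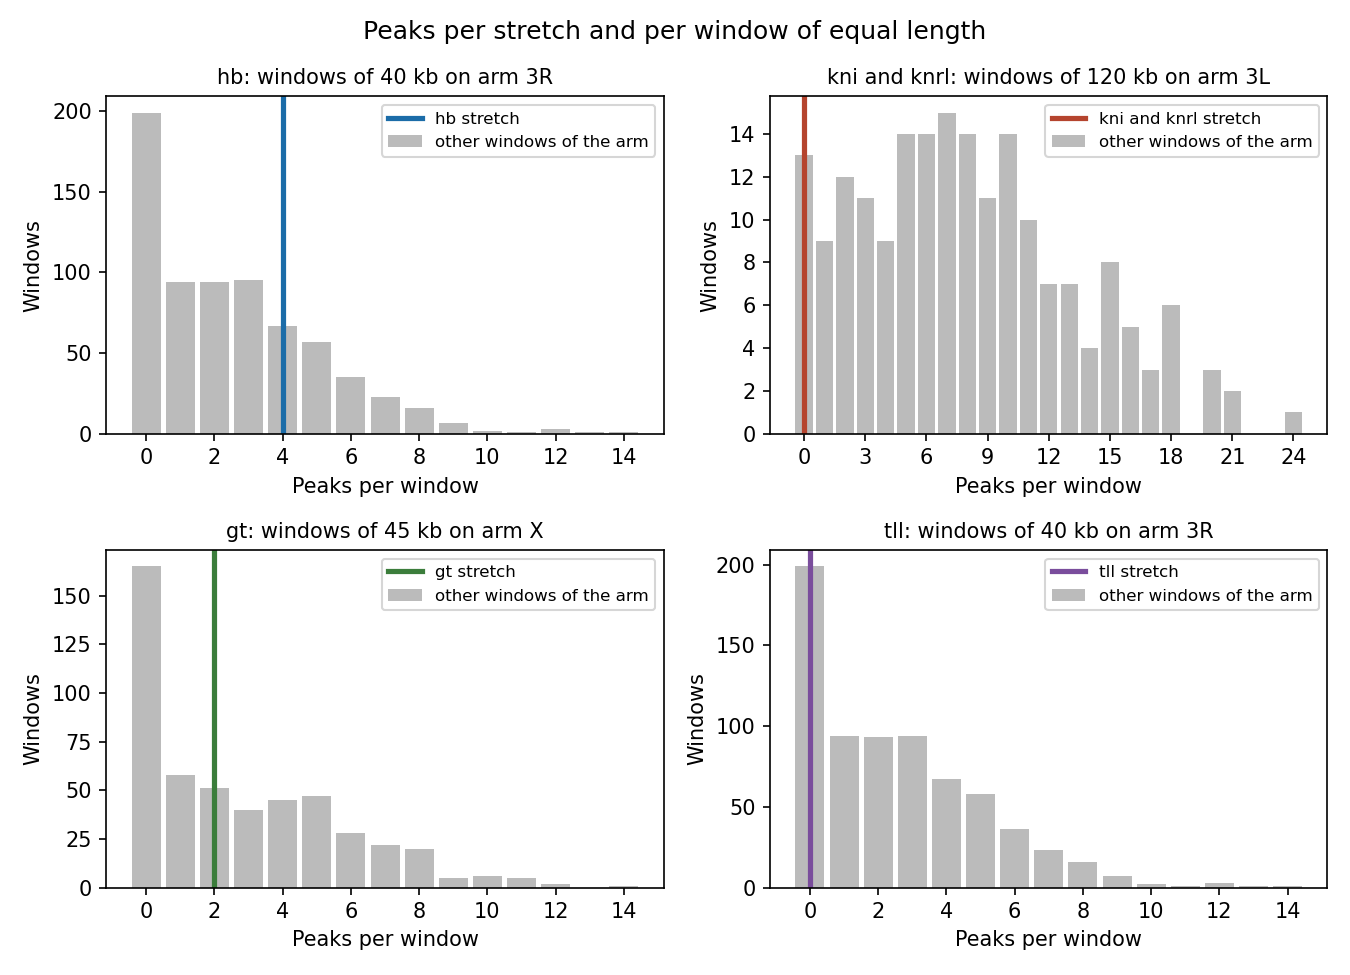
Number of windows (vertical) by peaks per window (horizontal) for all complete windows of equal length on the same arm, grey, with the gap gene stretch as a coloured line; 695 windows of 40 kb on 3R for hb and for tll, 192 of 120 kb on 3L for kni and knrl, and 495 of 45 kb on X for gt. The hb line stands at 4 peaks, the gt line at 2, and the lines of tll and of kni with knrl at 0.

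The sequence inside peaks gave the same order, but it comes from the same peaks as the counts and is not a separate measure. In the hb stretch 11.1% lay inside a peak, counting the peak that only reaches in, against 11.4% in the rest of 3R and a median of 6.70% over its windows, and 37.8% of those windows were covered at least as much. In the gt stretch the share was 5.65%, against 11.5% in the rest of X and a median of 6.81% over its windows, and 52.7% were covered at least as much. In the stretch of kni and knrl the share was 0, against 11.3% in the rest of 3L and a median of 8.98% over its windows. No base was covered in 6.77% of those windows. The share was also 0 in the tll stretch, and 28.1% of the windows of its length on 3R had no covered base.

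Around the stretches the density of peaks changed with distance. In the 200 kb around the centre of the kni and knrl stretch there were 2 peaks, which is 0.15 times the mean of 3L, and 7 of 114 other windows of that length (6.14%) held as few. In the 400 kb around it there were 29 peaks (1.09 times) and in the 1000 kb around it 75 (1.13 times). The empty interval thus lay in a neighbourhood with about the mean number of peaks for the arm. The stretch lay 2.61 Mb before the last peak of 3L.

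The other loci had other surroundings. Around hb the 100 kb about the centre held 13 peaks, 2.03 times the mean of 3R, and 256 of 276 other windows (92.8%) held as many or fewer. This was the highest ratio of the widths used for hb. The 200 kb stood at 1.25 times the mean (72.3% of other windows with as many or fewer) and the 1000 kb at 0.94 times (44.0%). Around tll the 100 kb about the centre held 8 peaks with a median score of 388.66, against 198.7 for the whole list. That count was 1.25 times the mean of 3R, and 71.0% of 276 other windows held as many or fewer. But the 1000 kb about tll held 42 (0.66 times), and 2 of 26 other windows (7.69%) held as few. The tll stretch lay 1.19 Mb before the last peak of 3R. Around gt the 100 kb held 3 peaks, 0.49 times the mean of X, and 33.5% of other windows held as few or fewer. The 200 kb held 8 (0.65 times, 33.0% of other windows with as few or fewer), none of them at 1000 or more. These low ratios were therefore common for X. The 1000 kb about gt held 83 (1.35 times).

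**Figure D4:**
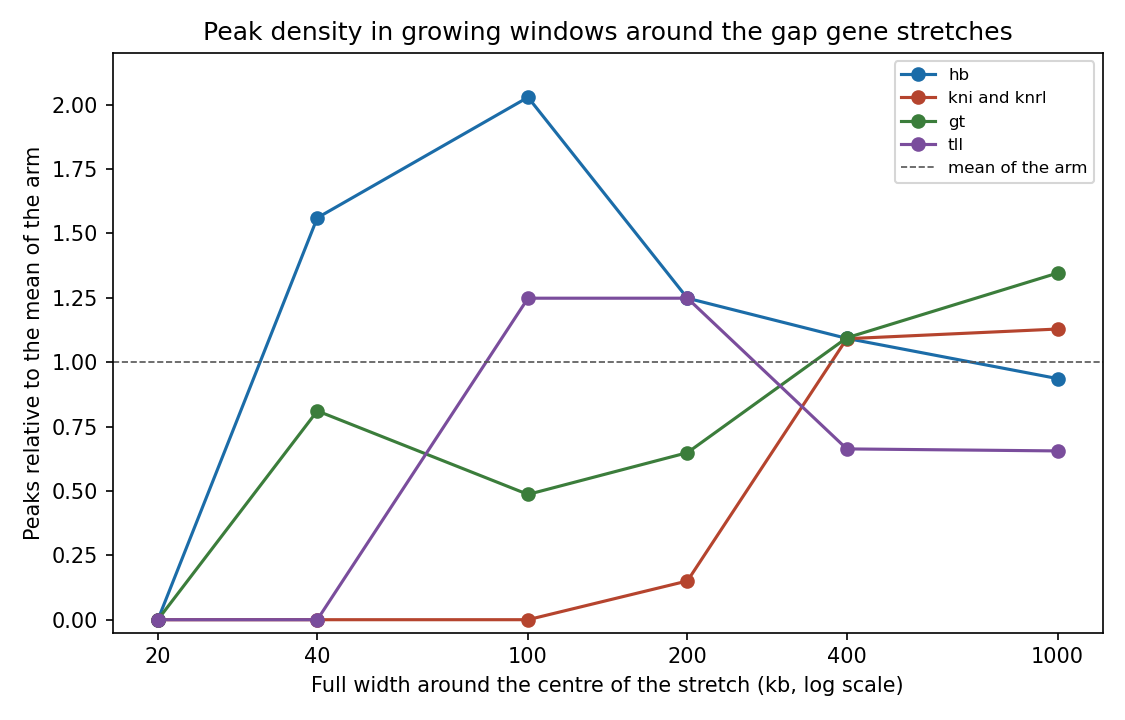
Number of peaks relative to the mean of the arm (vertical) in windows of 20 to 1000 kb around the centre of each gap gene stretch (horizontal, log scale), with the arm mean as a dashed line at 1. The innermost 20 kb hold 0 peaks for each of the 4 stretches; hb reaches 2.03 at 100 kb, and kni with knrl stands at 0 up to 100 kb, at 0.15 at 200 kb and at 1.09 at 400 kb.

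The member peaks lay towards the edges of their stretches. Of the 6 midpoints, 5 were within 5 kb of an edge, the other was 7.08 kb from one, and 0 lay farther from both edges than that. The share of peaks so placed in other windows was not computed. The close group at the right side of hb is also not a set of separate placements, so these counts only describe the stretches. The central 20 kb held 0 peaks in each of the 4 stretches. Alone this was a common state, since between 45.2% and 50.2% of other windows of 20 kb on the same arms were empty. How far the genes lie from the centres on BDGP5 was not determined.

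As a group the member peaks had low scores. Their median score was 98.9, with a range of 73.34 to 692.44, against a median of 198.7 and quartiles of 102.0 and 417 for the whole list. Of the 6 peaks, 1 scored at or above the list median, against 50% of the list by construction, and 3 scored under 100, against 24.1% of the list. None of the 6 reached 1000, but only 6.77% of the list did, so 0 of 6 is near the share of the list. With the stretches widened by 5 kb at each edge, 2 of 9 peaks reached 1000. By locus the median was 113.6 for the 4 peaks of hb, against 197.7 in the rest of 3R, and 83.4 for the 2 peaks of gt, against 233.6 in the rest of X. With so few peaks these medians are a description of single peaks.

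The widths of the member peaks ran from 377 to 1516 bp, with a median of 1168 bp, against 1366 bp for the list. The width of the left hb peak exceeded 48.1% of the list, that of the strongest hb peak 47.8% and that of the wider gt peak 55.9%, so these 3 were of middling width. The other 3 exceeded 1.36%, 24.7% and 33.5% of the list. None was 4 kb wide or more, which is near the share of the list, since only 6.68% of it was so wide. Score and width come from the same peak call and are not separate measures. Of the 4 neighbouring pairs inside a stretch, 3 had midpoints within 5 kb of each other. In the list 44.7% of neighbouring pairs did, but a pair inside a stretch cannot lie farther apart than the stretch is long, so the shares cannot be compared.

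**Figure D5:**
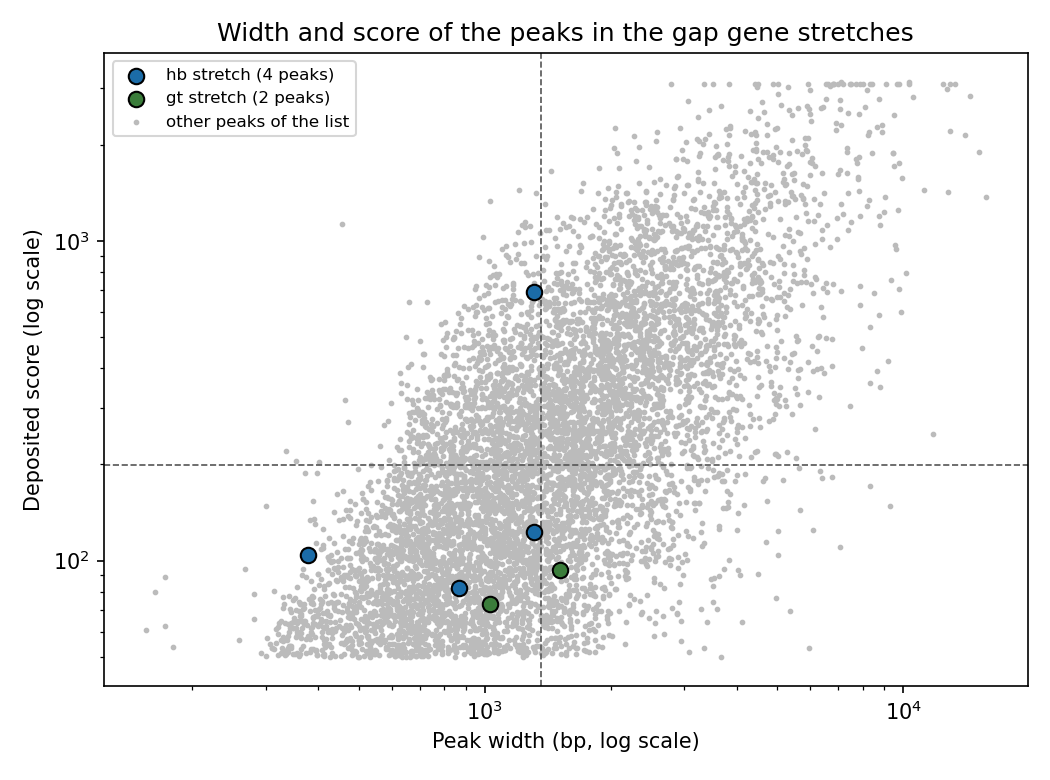
Peak width in bp (horizontal, log scale) and deposited score (vertical, log scale) for all 7579 peaks, with the 4 peaks of the hb stretch and the 2 of the gt stretch coloured and the medians of the list, 1366 bp and 198.7, dashed. One hb peak, at 692.44, lies above the median score and the other 5 members lie below it.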

How the data were processed

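A single peak list, from the ChIP sample, was used. Peaks were called with MACS, per the file headers, and reads were aligned with Bowtie on build BDGP5, per the submitters' processing notes. The sources used here give no tool versions or settings and do not say whether replicates were pooled. Each deposited peak has a position and a score of the authors, whose definition the file does not give. Starts are printed from 1 for peaks, and midpoints lie halfway along a peak. A stretch's peaks were counted with Python 3.11.15, pandas 2.3.3 and numpy 2.4.6, and counting was checked on simulated lists. In place of random windows, all complete windows of equal length between the first and last peak of the arm were used, without those touching the stretch. No test was run, because 1 list has no replicates. All members, with the strongest, widest, weakest and closest peaks in full, were named by a fixed rule; flanking peaks, and the closest peaks of 1000 or more outside a stretch, were chosen after their values were seen. Stretches and comparisons were chosen with earlier results of these data known. The windows around centres and the peak-free intervals were added after the counts were seen. Gene names came from a RefSeq table of Release 6, which matched all 5 members. Its coordinates were used only to put genes in order by their start, and no peak was placed by them. Alternatives varied the score minimum, merging, stretch edges and windows.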

Additional observations from a re-analysis of the deposited data

How the results depend on the processing

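Of 126 alternative values, 86 stayed near the values reported and 40 moved. Some of the 86 could not move, since the score limits and narrowing can only remove peaks and the stretches of kni with knrl and of tll were already empty. For kni and knrl the widened share (7.34%) still counted empty windows, though the stretch then held 1 peak. The tally is therefore not a measure of robustness. No paired analysis was possible because 1 list stands for the ChIP replicates, and for the same reason no replicate could be left out. The planned comparisons of promoter motifs and of the kni and knrl proteins were not run. Among the peaks at or above the median score (the upper part of the list), hb held 1 peak and gt 0, and the covered share was 3.27% for hb and 0 for gt. With a score minimum of 100, gt held 0 peaks and 0 covered. Narrowing by 5 kb at each edge left 0 peaks and 0 covered in hb, and 1 peak and 2.94% in gt. Widening by 5 kb gave kni and knrl 1 peak and 1.48% covered, hb 17.5% covered, and 2 peaks of 1000 or more over all stretches. Members numbered 6, and 9 after widening, 1 after narrowing, 7 by overlap, 5 after merging within 500 bp, and 3 and 1 with the score minimum and the upper part. Neighbouring pairs within 2 kb numbered 1.

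The share of windows with at least as many peaks as hb was 57.3% (upper part), 38.7% (merged), 100% (narrowed, where hb has 0), 19.1% (widened) and 22.9% (overlap), and the share covered at least as much was 42.0% (score minimum), 50.4% (upper part), 100% (narrowed) and 26.5% (widened). For gt the share with at least as many was 100% (score minimum and upper part, where gt has 0), 61.4% (narrowed) and 61.7% (widened), and the share covered at least as much was 100% (score minimum and upper part). Empty windows of the kni and knrl length were 16.5% in the upper part (16.0% without a covered base). Those of the tll length were 33.2% (score minimum), 42.6% (upper part), 35.8% (narrowed) and 25.2% (widened), and without a covered base 32.2%, 41.1%, 34.6% and 24.5%, from 28.1%. Fewer peaks or shorter windows leave more windows empty by construction. Windows every 1 kb, windows shifted by 0.5 of their length, and windows of all 5 large arms moved none of these shares beyond the exact 95% binomial interval of the share. The stretch of tll held 0 peaks in each alternative run. Only widening, overlap and merging could have added a peak there, since the score limits and narrowing can only remove peaks. The unknown depth limits every empty stretch: a peak-free stretch holds no call at or above the lowest score, and whether it lacks binding, reads or mappable sequence was not tested.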
